A study of Glycine max with 2 samples.

Results

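The 5 genes described here are the photosynthesis genes of a list of 16-base expression tags that differed between the hairless soybean line Clark glabrous (CG) and the wild-type line Clark standard (CS). They were chosen as the distinct Glyma models paired with a tag of the category "photosynthesis related", and they are 5 of the 78773 Glyma models in the RNA-Seq tables. The list holds 167 tags, of which 144 were listed as higher in CS and 23 as higher in CG, and all 5 photosynthesis tags stand in the first of these groups. The tag ratios that selected the genes came from separate tag libraries of the same 2 lines and are not given here. Since they compare the same lines, the lower RNA-Seq values in CG below are a description of the chosen genes and carry no test.

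CG carries the dominant P1 allele, which was brought into Clark by repeated backcrossing, and lacks non glandular trichomes. CS is the Clark line with trichomes. The RNA came from young shoot tips of 4-week-old plants that were grown under optimal conditions in a green house, and each line has 1 library, from tips harvested from multiple plants. No difference below has a replicate check, and the spread between plants is unknown. In such whole tissue, fewer cells of a type and less RNA per cell cannot be told apart. The tissue label was not checked against marker genes, because 0 of the Glyma identifiers could be matched with a gene name in the reference used here.

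Photosynthesis in leaves joins a set of light reactions in the thylakoid membrane to carbon fixation in the chloroplast stroma. Chlorophyll a/b-binding proteins form the antenna that collects light and passes its energy to the photosystems. Electrons then leave photosystem I through ferredoxin, and the energy they carry is used by the Calvin cycle, in which Rubisco fixes carbon dioxide. Rubisco activase keeps Rubisco active by removing inhibitory sugar phosphates from its catalytic sites. The 5 genes are 2 antenna genes, 1 ferredoxin gene and 1 Rubisco activase gene of these steps, and 1 PsbP-like gene, described below.

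The tags are shown because they tie each gene to its place in the list. A tag is read next to the last DpnII restriction site of a transcript. The tags are written from the 5′ to the 3′ end. Capitals mark bases at which another listed tag, only 1 base away in all, differs.
DGE0003923 (Glyma16g28030, chlorophyll a-b binding protein 1): accaaataacaataag
DGE0000179 (Glyma16g27990, photosystem II type I chlorophyll a/b-binding protein): accttgcTgacccAgt
DGE0003763 (Glyma10g43690, PsbP-like protein 2): aagtttgaaatatctg
DGE0004605 (Glyma05g30200, ferredoxin-2): cgggcagaataagagt
DGE0001894 (Glyma11g34230, Rubisco activase): caagtgctagaagttg

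The tag of Glyma16g27990 was 1 base away from 2 other tags, both annotated as chlorophyll a/b-binding proteins in the study's list of 300 abundant tags. With positions counted from 1 at the 5′ end, DGE0000004 differs from it by A14T and DGE0000005 by T8G.
DGE0000004: accttgctgacccTgt
DGE0000005: accttgcGgacccagt
None of the other 4 tags had a listed tag within 1 base, and the nearest ones were 4 to 7 bases away. The study marks Glyma16g28030 as a model with a SNP within its tag sequence.

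RNA-Seq levels are given in RPKM, so that levels can be compared between genes. This is a count of alignments divided by the length of the gene model and by the total of alignments in the library. A read could count on more than 1 model. Whole alignments could be worked out from the steps between RPKM values, and the totals behind these were 147273808 alignments in CG and 152791816 in CS. Both totals exceed the mapped reads that the study states. The 5 genes rested on 2238 to 41494 alignments in CG and on 6037 to 394132 alignments in CS. Intervals below are exact 95% binomial intervals of the log2 CG/CS ratio of alignments. They cover counting error only, treat alignments as independent, and compare 2 libraries rather than 2 lines.

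All 5 genes had a lower RPKM in CG than in CS, by 2.60-fold to 14.3-fold. The log2 CG/CS ratios, taken after adding a pseudocount of 0.1 RPKM, ran from -3.84 to -1.37 with a median of -1.96. All 5 were thus at least 2-fold lower in CG, as were 2438 (5.57%) of the 43753 models that averaged at least 1 RPKM over both libraries, called expressed models below. Of the expressed models 27.3% were lower in CG by any amount, 13.9% were at least 2-fold higher in CG, and the median log2 ratio was 0.34. Relative to this median the 5 ratios lay between -4.18 and -1.71, still past 2-fold for all 5 genes, as for 9.41% of the expressed models, while 8.37% of these were then at least 2-fold higher in CG. Level moved with the ratio, since 180 of the 962 models that averaged at least 100 RPKM (18.7%) were 2-fold or more lower in CG. PsbP-like protein 2 is the only one of the 5 genes below this high range.

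**Figure D1:**
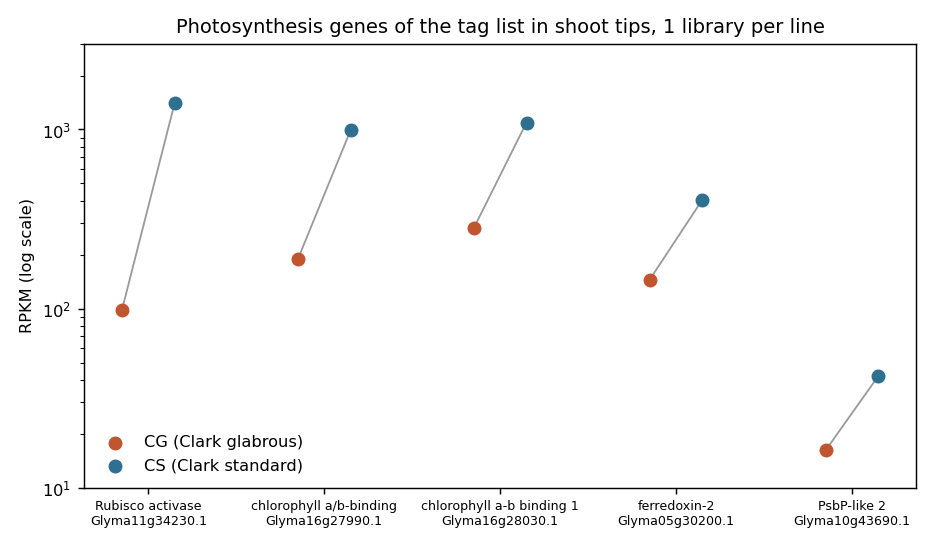
RPKM (log scale) of the 5 photosynthesis genes in the single CG library (left point of each pair) and the single CS library (right point), with lines joining the 2 values of a gene and genes ordered by their ratio. Every CG point lies below its CS point, and the Rubisco activase gene has the steepest line, with 98.1 RPKM in CG and 1406 RPKM in CS.

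The antenna genes were the most abundant of the 5 in CG. Glyma16g28030, annotated as chlorophyll a-b binding protein 1, had 280.9 RPKM in CG and 1093 RPKM in CS, from at least 41494 and 167544 alignments. Its log2 CG/CS ratio was -1.96, and that of its alignments had an interval of -1.98 to -1.94. The gene ranked 194 of the 78773 models by RPKM in CG and 38 in CS. It was therefore among the most abundant models of both libraries.

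Glyma16g27990, annotated as a photosystem II type I chlorophyll a/b-binding protein, had 188.5 RPKM in CG and 990.3 RPKM in CS. The CG value was 19.0% of the CS value, a log2 ratio of -2.39 with an alignment interval of -2.41 to -2.37. Its rank was 390 in CG and 49 in CS. The 2 antenna genes did not differ between the lines to the same extent. Glyma16g28030 had 1.49 times the RPKM of Glyma16g27990 in CG and 1.10 times in CS, a ratio within each library that no scaling between the libraries can change.

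Glyma10g43690 carries the annotation PPL2, PsbP-like protein 2. In Arabidopsis, PsbP-like protein 2 is a lumenal subunit of the chloroplast NADH dehydrogenase-like complex, which cycles electrons around photosystem I. The soybean gene was the least abundant of the 5, with 16.2 RPKM in CG and 42.0 RPKM in CS. It also had the smallest difference between the lines, a log2 CG/CS ratio of -1.37, and with 2238 and 6037 alignments the widest interval, -1.45 to -1.31. Its rank was 8598 in CG and 2327 in CS.

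Ferredoxin, a small iron-sulfur protein of the stroma, takes electrons from photosystem I and hands them to the enzyme that reduces NADP. The ferredoxin-2 gene Glyma05g30200 had 145.0 RPKM in CG and 405.7 RPKM in CS. Its CG value was 35.7% of its CS value, a log2 ratio of -1.48 with an alignment interval of -1.51 to -1.46. Its ratio was close to that of the PsbP-like gene, although the ferredoxin gene was far more abundant. Glyma10g43690 had 0.112 times the RPKM of Glyma05g30200 in CG and 0.104 times in CS, the smallest shift among the 10 pairs of these genes.

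The Rubisco activase gene Glyma11g34230 showed the largest difference. Its model Glyma11g34230.1 had 98.1 RPKM in CG and 1406 RPKM in CS, from at least 26507 and 394132 alignments. The CG value was 6.98% of the CS value, a log2 ratio of -3.84 with an alignment interval of -3.86 to -3.82. Only 131 of the 43753 expressed models (0.299%) had a lower ratio. By RPKM the model ranked 1029 in CG and 19 in CS.

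The tables hold 2 further models of the activase locus. Glyma11g34230.2 had 108.6 RPKM in CG and 1575 RPKM in CS, and Glyma11g34230.3 had 103.8 RPKM in CG and 1486 RPKM in CS. Their log2 ratios were -3.86 and -3.84. The models of 1 locus share most of their sequence and thus their reads, so these values are not separate evidence. The other 4 genes have 1 model each.

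The order of the 5 genes by RPKM changed between the lines because of the activase gene. In CG the order was Glyma16g28030, Glyma16g27990, ferredoxin-2, Rubisco activase and PsbP-like protein 2. In CS the activase gene came first and the other 4 kept the order they had in CG. Glyma16g28030 had 2.86 times the RPKM of the activase model in CG and 0.778 times in CS. The ferredoxin gene had 1.48 times the activase RPKM in CG and 0.289 times in CS. Whether neighbours in these orders differ beyond the spread between plants was not tested, since each line has 1 library.

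**Figure D2:**
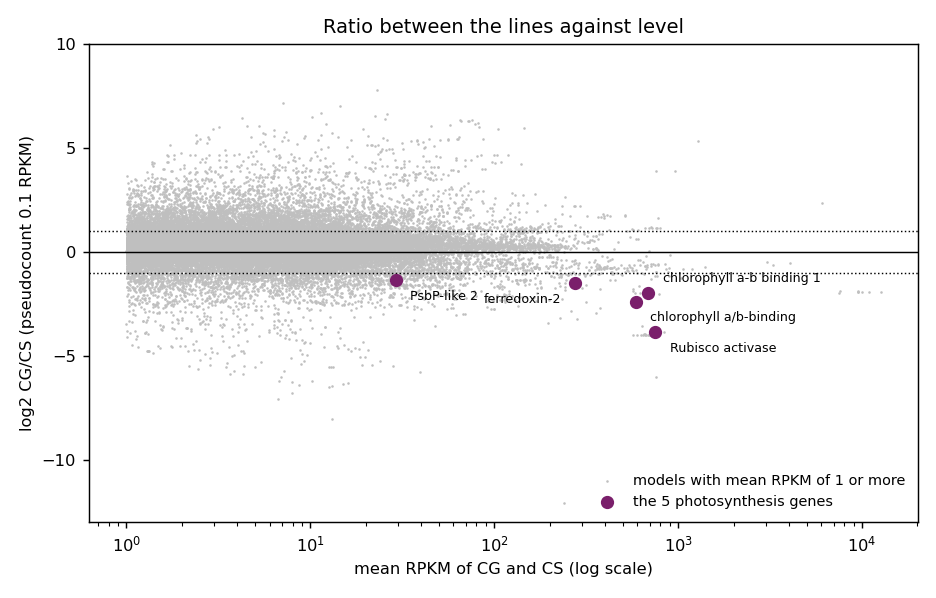
Log2 CG/CS ratio (pseudocount 0.1 RPKM) of each expressed model (grey points) against the mean RPKM of both lines on a log scale, with the 5 photosynthesis genes in purple and dotted lines at a 2-fold difference. All 5 lie below the lower dotted line, from -1.37 for the PsbP-like gene to -3.84 for the Rubisco activase gene.

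The genes were also set beside models of a like level, those with a mean RPKM within 2-fold of the gene's own. Each set includes the gene itself and any other model of its locus, and the models of 1 locus count separately. Of 139 such models for Glyma11g34230.1, 44 (31.7%) were at least 2-fold lower in CG and 14 had a lower ratio than the activase model. Glyma11g34230.2, a model of the same locus, is among these 14. For Glyma16g28030 there were 169 such models, 49 of them (29.0%) at least 2-fold lower, and 24 had a lower ratio. For Glyma16g27990 they numbered 195, with 57 (29.2%) at least 2-fold lower and 20 with a lower ratio. The sets of these 3 genes overlap and each holds all 3 genes, so the 3 shares are not separate evidence. A sizeable share of the most abundant models was thus lower in CG, these 3 genes included. Of the 535 models at the level of the ferredoxin gene, 89 (16.6%) were at least 2-fold lower in CG and 38 had a lower ratio. At the level of the PsbP-like gene, 519 of 7080 models (7.33%) were at least 2-fold lower and 271 had a lower ratio.

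Within the tag list the photosynthesis genes went the opposite way from most other models. Tags listed as higher in CS were paired with 122 distinct models, and only 18 of these were at least 2-fold lower in CG by RNA-Seq, 5 of them the photosynthesis genes. Of the 117 other models, 13 (11.1%) were at least 2-fold lower in CG and 66 were at least 2-fold higher. Over all expressed models these shares were 5.57% and 13.9%. Most of the 117 models were thus higher in CG by RNA-Seq, although their tags were listed as higher in CS. Their median log2 CG/CS ratio was 1.80, against -1.96 for the photosynthesis genes. Without the 8 models of antisense pairings it was 12 of 109 models. The category sizes are small and the genes were listed by tag ratio, so these counts describe the list and were not tested.

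No other category with at least 5 models was lower throughout. None of the 22 models called transcription related was at least 2-fold lower in CG and 16 were at least 2-fold higher, with a median of 2.52. For the 10 models called defense/stress related the numbers were 0 and 8, with a median of 3.78. The 36 models of the category "other" had 7 that were at least 2-fold lower and 14 that were at least 2-fold higher. Among the 122 models the photosynthesis genes ranked 1, 2, 3, 5 and 19 by RPKM in CS, with Rubisco activase first, while in CG they ranked 1, 7, 11, 22 and 75, with Glyma16g28030 first. Their median was 145.0 RPKM in CG and 990.3 RPKM in CS, against 27.8 RPKM in CG and 6.52 RPKM in CS for the 117 others. Of the 5 models with 400 RPKM or more in CS, 4 were photosynthesis genes. The limit of 400 RPKM was not fixed beforehand and lies just under the ferredoxin-2 value of 405.7 RPKM in CS. No like count over all models was made, but the ferredoxin-2 gene ranked 166 of the 78773 models by RPKM in CS. The count of 4 therefore depends on where the limit was set.

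**Figure D3:**
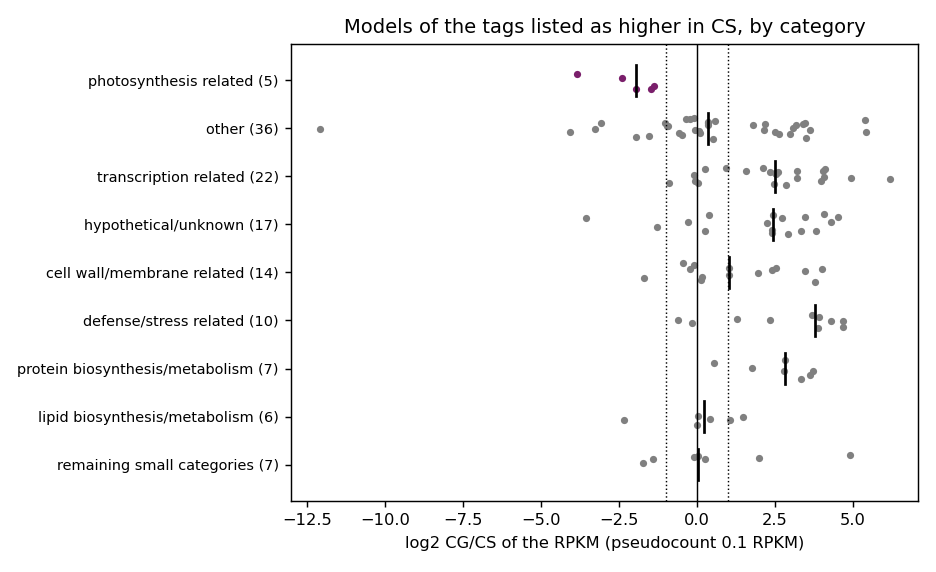
Log2 CG/CS ratio of the RPKM (pseudocount 0.1 RPKM) for the models of tags listed as higher in CS, by category, with the number of models in brackets, medians as black bars and dotted lines at a 2-fold difference. The photosynthesis models (purple) all lie left of the lower 2-fold line, while the medians of the transcription and defense/stress categories are 2.52 and 3.78 (2 models listed in 2 categories are drawn in both).

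The loci next to the 5 genes, taken as the 5 before and the 5 after in the order of Glyma numbers, mostly did not share their difference. Around the PsbP-like gene, 5 of the 10 loci averaged at least 1 RPKM and 0 of these were at least 2-fold lower in CG, with log2 ratios from -0.33 to 0.77. The most abundant was Glyma10g43730, with 115.1 RPKM in CG and 67.3 RPKM in CS. Around ferredoxin-2, 7 loci passed this level, 0 of them at least 2-fold lower, with ratios from -0.94 to 0.72. Around the activase gene 3 loci passed, with ratios from 0.00 to 0.66. No locus beside these last 2 genes reached 100 RPKM in either line. Of all expressed models only 5.57% were at least 2-fold lower in CG, so 0 among so few loci says little about these neighbourhoods.

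The antenna genes lie near each other on chromosome 16, with 3 numbered loci between them. These 3 loci had at most 1.80 RPKM in CG and 1.51 RPKM in CS. Another abundant locus, Glyma16g28070, follows as the 4th locus after Glyma16g28030. It had 311.5 RPKM in CG and 1258 RPKM in CS, from at least 48586 and 203508 alignments, and a log2 CG/CS ratio of -2.01. It has no photosynthesis tag in the list, and the tables used here give it no annotation. The 3 abundant loci may share reads, since a read could count on several models, and how many reads they shared was not tested.

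The loci directly beside the antenna genes that averaged at least 1 RPKM, named after their values were seen, were not lower in CG. Glyma16g28040, next to Glyma16g28030, had 13.5 RPKM in CG and 5.63 RPKM in CS, a log2 ratio of 1.25. Glyma16g27980, next to Glyma16g27990, had 8.45 RPKM in CG and 5.82 RPKM in CS. Among the remaining loci of the stretch only Glyma16g27950, singled out after its values were seen, was at least 2-fold lower in CG, with 0.0467 RPKM in CG and 1.98 RPKM in CS.

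**Figure D4:**
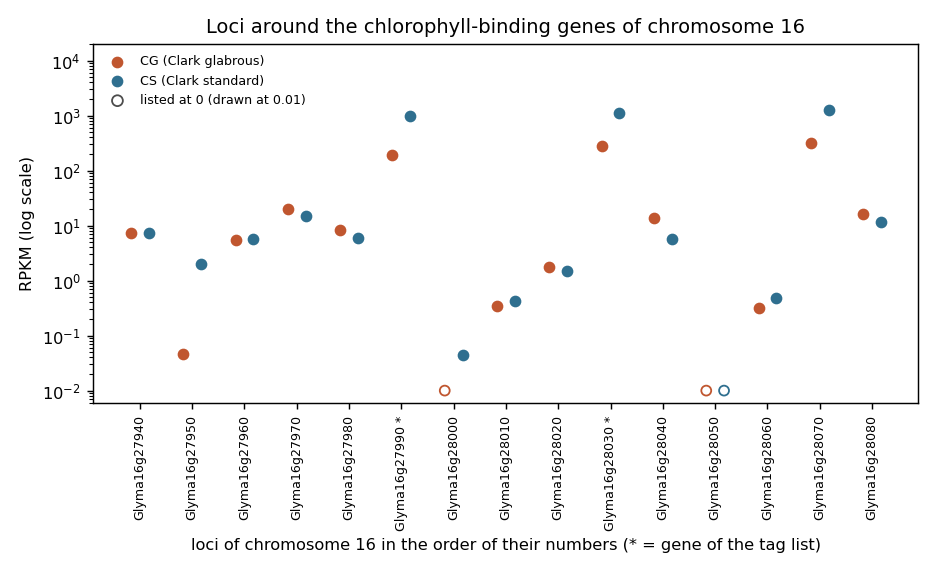
RPKM (log scale) of 15 loci of chromosome 16 in the order of their Glyma numbers, with CG to the left of CS at each locus, the 2 antenna genes of the tag list marked by an asterisk, and open circles for values listed at 0, drawn at 0.01. Glyma16g27990, Glyma16g28030 and Glyma16g28070 stand above 100 RPKM in both lines, with 188.5 to 311.5 RPKM in CG and 990.3 to 1258 RPKM in CS.

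The loci most like each gene were taken as the 3 nearest by distance in the log2 RPKM of both libraries, out of 9612 loci that averaged at least 10 RPKM and were above 0 in both lines. This likeness rests on 2 libraries, and the tables give these loci no names. Whether they share reads with the genes they are nearest to was not tested. Nearest to the activase model were Glyma05g08590, Glyma18g04080 and Glyma19g01050. The first had 85.6 RPKM in CG and 1389 RPKM in CS, the next had 98.2 RPKM in CG and 1177 RPKM in CS, and the last had 80.9 RPKM in CG and 1286 RPKM in CS. Their log2 ratios were -4.02, -3.58 and -3.99, close to that of the activase model because the loci were picked for like RPKM in both lines.

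Nearest to Glyma16g28030 were Glyma19g06420, Glyma12g04150 and Glyma11g11870, with 247.5 to 284.0 RPKM in CG and 990.7 to 1032 RPKM in CS. Glyma11g11870 was also among the 3 nearest to Glyma16g27990, with Glyma11g11900 and Glyma19g28240. These 3 loci had 234.4 to 247.5 RPKM in CG and 891.6 to 990.7 RPKM in CS, a smaller difference than that of Glyma16g27990. For ferredoxin-2 the nearest loci were Glyma04g01020, Glyma08g17610 and Glyma06g11890, with log2 ratios of -1.48, -1.57 and -1.73. For the PsbP-like gene they were Glyma07g10060, Glyma09g24790 and Glyma01g13170, with log2 ratios of -1.35, -1.37 and -1.48. None of the 5 genes was among the 3 nearest loci of another.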

How the data were processed

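RNA-Seq was carried out on 1 shoot tip library of CG and 1 of CS. The authors aligned the reads against the predicted Glyma cDNA models using Bowtie, with mismatches and more than 1 alignment per read allowed, and deposited RPKM values, 1 per model and library. The version of Bowtie is not given in the sources used here. The genes and all lists were chosen with earlier results of these data known. Tag sequences, pairings, annotations and categories were taken from the study's supplementary tables, and their values were not used.

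The RPKM values were used as deposited. Log2 CG/CS ratios were taken with a pseudocount of 0.1 RPKM, which understates the change of low models. They were summarised over models that averaged at least 1 RPKM. No test between the lines was run, because each has 1 library. Totals and whole alignments were worked out from the steps of the RPKM values, and the smallest whole numbers that fit were kept, so that true numbers can be multiples of these. A list of photosynthesis genes by description and lists of cell type markers and paralogs were not made, since the reference table used here matched 0 Glyma identifiers and held no descriptions. The genes named are the 5 genes, other models of their loci, neighbouring loci and the nearest loci by RPKM. The computations were also run on simulated data in which the count of each model was drawn independently. Reads that count on several models were not simulated, and the outcome is not given here. SciPy 1.17.1, pandas 2.3.3 and NumPy 2.4.6 were run under Python 3.11.15, and matplotlib 3.10.9 drew the figures.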

Additional observations from a re-analysis of the deposited data

How the results depend on the processing

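All 5 genes stayed at least 2-fold lower in CG under each of the 2 other pseudocounts (1 and 0.01 RPKM) and the 3 other scalings, and none of the 25 alternative ratios changed sign. The scalings moved the ratios by more than their counting intervals. After median-centring, which multiplies CG by 0.792, the log2 CG/CS ratios were -2.30 for Glyma16g28030, -2.73 for Glyma16g27990, -1.71 for Glyma10g43690, -1.82 for Glyma05g30200 and -4.18 for Glyma11g34230. With the same 75th percentile in both libraries they were -2.29, -2.73, -1.71, -1.82 and -4.17 in the same order of genes, and with the mapped reads that the study states they were -2.12, -2.55, -1.53, -1.64 and -4.00.

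The background counts changed more, partly because the number of models counted changed. The models at least 2-fold lower in CG, 2438 (5.57%) as reported, were 4116 (9.41%) after median-centring and 3966 (9.3%) with the same 75th percentile. With the mapped reads they were 4026 (8.04%), and with no filter 4060 (5.15%). At a minimum mean of 10 RPKM they were 990 (7.5%), and at one of 100 RPKM 180 (18.7%). The limit of 100 RPKM was chosen after seeing the data. The models 2-fold or more higher in CG, reported as 6073 (13.9%), numbered 3662 (8.37%) after median-centring and 3536 (8.29%) with the same 75th percentile. They numbered 1677 (12.7%) at the minimum of 10 RPKM and 131 (13.6%) at that of 100 RPKM. Those lower in CG by any amount, 11934 (27.3%) as reported, were 21876 (50%), 21095 (49.5%) and 18468 (36.9%) under the 3 scalings. They were 21933 (27.8%) with no filter, 4068 (30.8%) at the minimum of 10 RPKM and 424 (44.1%) at that of 100 RPKM. The other alternatives stayed within 1.5 times of the reported counts. They gave 1810 (4.14%) models at least 2-fold lower and 4098 (9.37%) at least 2-fold higher with a pseudocount of 1 RPKM. These counts were 2523 (5.77%) and 6365 (14.5%) with 0.01 RPKM, and 1989 (5.67%) and 5341 (15.2%) with 1 model per locus. The count at least 2-fold higher was 8829 with no filter and 5886 with the mapped reads. The filters change the number of models counted. The windows of like level and the omission of antisense pairings were also chosen after seeing the data. The limit of 400 RPKM in CS was not fixed beforehand. No paired analysis was possible because CG and CS have 1 library apiece, which also means that none could be left out. The alternatives for a photosynthesis list by description were not run, because no such list was made.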
